A study of Mus musculus with 6 samples.

Results

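The 10 genes used as markers of hippocampal interneurons, Gad1, Gad2, Sst, Pvalb, Vip, Npy, Cck, Calb2, Reln and Lhx6, were followed in bulk RNA of the mouse dorsal hippocampus after knockdown of the long non-coding RNA Snhg11. The 10 genes were taken by name from the 55401 gene identifiers in the files, with earlier results of these data known. All 10 passed the filter on low counts that left 19969 genes for testing. The samples came from WT (wild-type) male mice, littermates of the Ts65Dn line, aged 4 months. A bilateral injection into the dorsal dentate gyrus (DG) gave each hemisphere 50 µg of an antisense oligonucleotide (ASO), and tissue was taken 3 days later. The 3 Snhg11-ASO samples received a gapmer that directs RNase H to Snhg11, and the 3 Control-ASO samples a gapmer of scrambled sequence, so all mice had surgery and an oligonucleotide and no uninjected group was compared. An injected ASO reaches the cell types of the tissue without a cell-specific promoter, and the RNA was extracted from whole tissue.

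Interneurons are a minority of hippocampal neurons that release GABA, the main inhibitory transmitter of the adult brain. They are sorted into classes by the peptides and calcium-binding proteins they make and by their embryonic origin. Cells from the medial ganglionic eminence (MGE) give the somatostatin and parvalbumin classes, and cells from the caudal ganglionic eminence (CGE) give the vasoactive intestinal peptide and most cholecystokinin and calretinin classes. Some of the 10 genes also have other sources in the hippocampus, of which a few are named here. Cck is made by pyramidal cells, Calb2 by mossy cells in part of the mouse dentate hilus, and Reln and Calb2 by Cajal-Retzius cells. How far each source applies to the dorsal hippocampus was not examined. In bulk RNA, fewer cells of a type and less RNA per cell cannot be told apart.

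The libraries held 28951250 to 43997537 read pairs on genes. Snhg11 was counted at 209 to 551 CPM in Control-ASO and 65.4 to 139 CPM in Snhg11-ASO samples, where CPM is the read count scaled to the size of the library with TMM factors. Its log2 fold change was -2.13 (edgeR adjusted p = 0.395, DESeq2 adjusted p = 6.25e-05). Markers of the labelled tissue were present in every sample, with the granule cell factor Prox1 between 82.1 and 167 CPM. A few libraries stood apart. Snhg11-ASO replicate 1 was low in microglial genes (summed CPM 177, against 274 to 542 in the other samples) and in oligodendrocyte genes (1186 CPM, against 1308 to 2901). Control-ASO replicate 3 was high in Tbr1 (34.2 CPM, against 16.4 to 23.7) and Slc17a6 (41.7 CPM, against 16.6 to 20.6), genes of excitatory neurons outside the dentate gyrus. Genes of the choroid plexus, the secretory lining of the ventricles, summed to 1232 to 1899 CPM in Control-ASO replicates 1 and 3 and Snhg11-ASO replicate 1, and to 36.5 to 125 CPM in the other samples.

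The comparison asked whether the marker genes differed between the knockdown and control samples. Of them 8 were lower in the Snhg11-ASO mean, Gad1, Gad2, Sst, Pvalb, Vip, Calb2, Reln and Lhx6, and Npy and Cck were higher. None of the 10 passed an adjusted p of 0.05 in edgeR's quasi-likelihood test, as none of the 19969 genes did (0.0%). At an unadjusted p under 0.05, edgeR called 3 of the 10, Reln, Sst and Vip, all lower, against a background of 8.11% of all genes, made of 4.43% lower and 3.68% higher. DESeq2 called 258 genes after adjustment (1.29%) and none of the 10, with the same 3 genes at an unadjusted p under 0.05. The share of all genes at that p in DESeq2 was not taken. In 4 of the 10 (Gad1, Sst, Vip and Reln) every Snhg11-ASO sample lay below every Control-ASO sample. Groups that did not overlap were found for 15.4% of all genes, 7.7% lower and 7.73% higher. The median log2 fold change of the 10 was -0.25, against 0.01 over all genes tested, of which 48.3% lay below 0. Without Control-ASO replicate 1 this median was -0.11. Pan-neuronal genes moved in the same direction, with 8 of 8 lower and a median of -0.11, although 4 of 8 were lower without Snhg11-ASO replicate 1, and their part in these values was not tested.

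**Figure D1:**
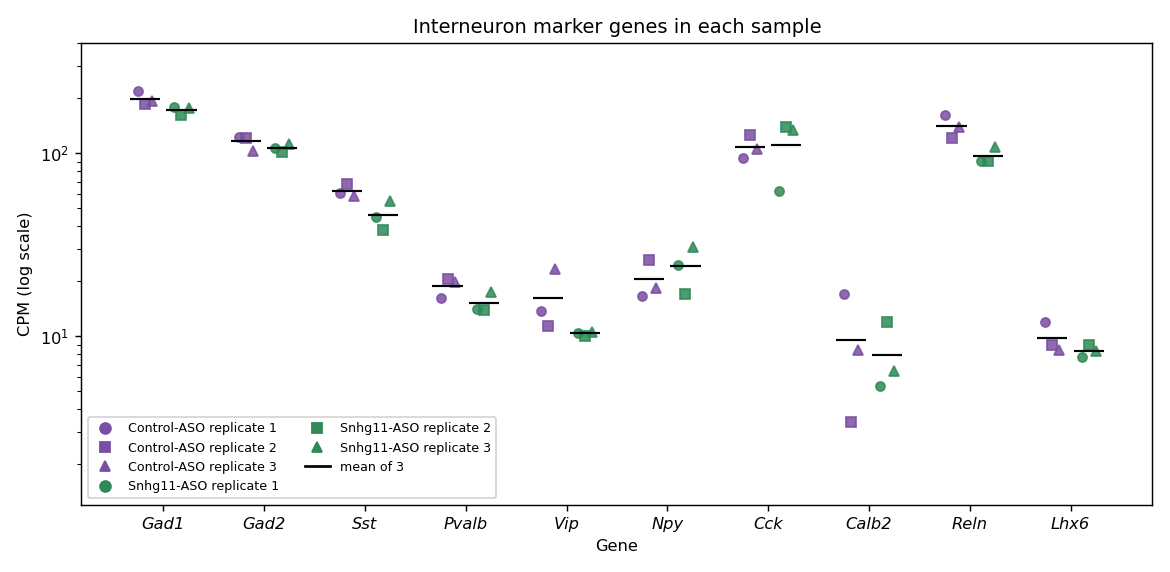
CPM on a log axis for the 10 interneuron marker genes, with 1 point per sample, 3 Control-ASO (purple) and 3 Snhg11-ASO (green), and a bar at each mean. The groups are apart for Gad1, Sst, Vip and Reln and overlap for the other genes, and the points of Calb2 are the most widely scattered, from 3.39 to 17.0 CPM.

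Gad1 and Gad2 encode the 2 glutamate decarboxylases that make GABA, and mark interneurons of every class. Values of the samples are given in the order of replicates 1, 2 and 3. Gad1 (chromosome 2, 70553072 to 70602014, plus strand, GRCm38) measured 219, 187 and 192 CPM in the controls and 179, 162 and 177 CPM in the knockdown samples. The groups were apart, with a gap between the lowest control and the highest knockdown sample that was smaller than the range within either group. The means were 199 ± 17.2 CPM in controls and 173 ± 9.31 CPM in knockdown samples (SD, n = 3 each). On the log2 scale Gad1 differed by -0.21 (standard error 0.10, edgeR adjusted p = 0.647). Gad2 (chromosome 2, 22622205 to 22693874, plus strand) was counted at 123, 122 and 103 CPM in Control-ASO and 107, 102 and 113 CPM in Snhg11-ASO samples. Here the groups overlapped, since Control-ASO replicate 3 lay below Snhg11-ASO replicates 1 and 3. The log2 fold change of Gad2 was -0.12 (95% confidence interval -0.35 to 0.12, edgeR adjusted p = 0.780). Across the 6 samples each enzyme was the marker most like the other, with a root mean square difference of 0.10 between their log2 CPM after each was centred on its mean. That likeness did not set the pair apart, since Gad2 stood at rank 277 of 19968 other genes in likeness to Gad1 and Gad1 at rank 436 in likeness to Gad2.

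Sst and Pvalb mark the main MGE-derived classes. Sst encodes somatostatin, a peptide of dendrite-targeting interneurons, which in the dentate gyrus include the hilar cells that reach the perforant path. It lies on chromosome 16 (23889573 to 23890958, minus strand). Sst measured 60.6, 68.3 and 58.2 CPM in the controls and 44.8, 38.3 and 55.1 CPM in the knockdown samples. All knockdown samples were lower than all controls, with Snhg11-ASO replicate 3 closest to them. The means were 62.4 ± 5.27 CPM in controls and 46.0 ± 8.48 CPM in knockdown samples (SD, n = 3 each), so that Sst stood at 73.8% of its control level. For Sst the log2 fold change was -0.44 (standard error 0.15, 95% confidence interval -0.79 to -0.09), with an unadjusted p of 0.0216 and an adjusted p of 0.551 in edgeR. In DESeq2 without Snhg11-ASO replicate 3 the adjusted p was 0.0435, and over all 18 alternatives it ranged from 0.0435 to 0.979.

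Pvalb encodes parvalbumin, the calcium-binding protein of fast-spiking basket and axo-axonic cells (chromosome 15, 78191114 to 78206400, minus strand). It was counted at 16.1, 20.5 and 19.9 CPM in Control-ASO and 14.0, 13.9 and 17.5 CPM in Snhg11-ASO samples. Snhg11-ASO replicate 3 was above Control-ASO replicate 1, so the groups overlapped. For Pvalb the log2 fold change was -0.31 (95% confidence interval -0.68 to 0.05, edgeR adjusted p = 0.660). Pvalb was the marker most like Sst over the 6 samples, at a root mean square difference of 0.14 and rank 27 of 19968 genes. Sst stood at rank 224 in likeness to Pvalb.

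Lhx6, a LIM-homeodomain transcription factor kept by MGE-derived interneurons into adulthood (chromosome 2, 36081953 to 36105408, minus strand), was the marker of lowest abundance per length. The controls measured 11.9, 9.01 and 8.37 CPM, and the knockdown samples 7.68, 8.97 and 8.34 CPM. Control-ASO replicate 1 stood above the rest, and the other 5 samples lay between 7.68 and 9.01 CPM. Lhx6 had a log2 fold change of -0.23 (95% confidence interval -0.65 to 0.20, edgeR adjusted p = 0.771), and -0.07 without Control-ASO replicate 1. An exon of Lhx6 overlaps the small RNA Gm27953 on the same strand, and read pairs on both are left out of the counts.

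Vip encodes vasoactive intestinal peptide, made by CGE-derived cells many of which inhibit other interneurons (chromosome 10, 5639218 to 5647617, plus strand). Vip measured 13.7, 11.4 and 23.3 CPM in the controls and 10.4, 10.1 and 10.6 CPM in the knockdown samples. The groups did not overlap, but 1 control sample held most of the distance, since Control-ASO replicate 3 was far above the other controls. For Vip the log2 fold change was -0.64 (standard error 0.26, 95% confidence interval -1.26 to -0.02), the largest in size among the 10, with an unadjusted p of 0.0455 and an adjusted p of 0.601 in edgeR. Without Control-ASO replicate 3 it was -0.28. The same sample was the high one for Slc17a6, Tbr1 and Satb1 (132 CPM, against 61.6 to 82.6). The part of these genes' source tissue in the Vip value was not tested.

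Npy encodes neuropeptide Y, made by hilar, neurogliaform and other interneurons and inducible in granule cells (chromosome 6, 49822710 to 49829507, plus strand). Npy was counted at 16.7, 26.3 and 18.5 CPM in Control-ASO and 24.6, 17.0 and 30.8 CPM in Snhg11-ASO samples. The samples of both groups were interleaved, and the log2 fold change was 0.24 (95% confidence interval -0.38 to 0.85, edgeR adjusted p = 0.836). Leaving out Snhg11-ASO replicate 3 gave 0.02, and leaving out Control-ASO replicate 2 gave 0.46. Cck, the gene of cholecystokinin (chromosome 9, 121489824 to 121495694, minus strand), was at 94.8, 126 and 106 CPM in Control-ASO and 62.2, 139 and 134 CPM in Snhg11-ASO samples. Its lowest and highest values were both in the knockdown group, with Snhg11-ASO replicate 1 far below the other 2. The log2 fold change of Cck was 0.04 (95% confidence interval -0.66 to 0.74, edgeR adjusted p = 0.980), 0.33 without Snhg11-ASO replicate 1, and -0.04 with the replicate number as a block.

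Calb2 encodes calretinin, a calcium-binding protein of interneurons that target other interneurons (chromosome 8, 110137502 to 110168210, minus strand). The controls measured 17.0, 3.39 and 8.40 CPM, and the knockdown samples 5.38, 11.9 and 6.48 CPM. The controls held both the highest and the lowest sample, a 5.01-fold range. The log2 fold change was -0.27 with a 95% confidence interval of -1.62 to 1.07 (edgeR adjusted p = 0.915), and 0.42 without Control-ASO replicate 1. The interval corresponds to 0.326 to 2.10 times the control level, so neither a lower nor a higher level of Calb2 was measurable within it. Mossy cell genes were higher in 5 of 5 (summed CPM 25.7 to 31.0 in Control-ASO and 32.3 to 50.1 in Snhg11-ASO). In 3 of 5 (Ajap1, Nmb and Glipr1) the groups did not overlap, against 7.73% of all genes apart and higher. Ajap1 held most of the sum (21.1 to 36.2 CPM), and Nmb and Glipr1 had at most 87 read pairs in a sample. Csf2rb2 was at 9.81 CPM in Snhg11-ASO replicate 1, against 0.951 to 2.24 CPM in the other samples. The part of mossy cells in the Calb2 values was not tested.

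Reln encodes reelin, a large secreted glycoprotein that in the adult hippocampus comes mainly from interneurons (chromosome 5, 21884454 to 22344702, minus strand). Reln measured 162, 121 and 139 CPM in the controls and 90.5, 91.2 and 108 CPM in the knockdown samples. The highest knockdown sample lay below the lowest control. The means were 141 ± 20.7 CPM in controls and 96.5 ± 9.80 CPM in knockdown samples (SD, n = 3 each), so that Reln stood at 68.6% of its control level. For Reln the log2 fold change was -0.54 (standard error 0.13, 95% confidence interval -0.86 to -0.23), with an unadjusted p of 0.00476 and an adjusted p of 0.465 in edgeR and an adjusted p of 0.0530 in DESeq2. Leaving out 1 Snhg11-ASO sample, DESeq2 called 1.72% of genes without replicate 1, 1.35% without replicate 2 and 1.1% without replicate 3, and of the 10 markers Reln and Sst in the last of these (Reln adjusted p = 0.0416). Exact permutation tests of Gad1, Sst, Vip and Reln each gave the smallest two-sided p that 3 samples against 3 allow, 0.1.

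Reln spans 460249 bases, the longest of the 10 genes, and its log2 fold change was -0.30 after each sample's trend with genomic span was removed. The antisense gene Gm10475 overlaps an exon of Reln on the opposite strand, and antisense counts over Reln were at most 7 in a sample against 3452 or more on its own strand. The Cajal-Retzius genes Trp73, Ebf3 and Nhlh2 were tested and Lhx1 and Lhx5 were too low for it. All 3 had log2 fold changes above 0 (0.01, 0.83 and 0.38), with Ebf3 at an unadjusted p of 0.0310 and an adjusted p of 0.574 in edgeR. The list summed to 5.11 to 6.63 CPM in Control-ASO and 5.04 to 9.14 CPM in Snhg11-ASO samples, with overlapping groups, and the part of Cajal-Retzius cells in the Reln values was not tested.

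**Figure D2:**
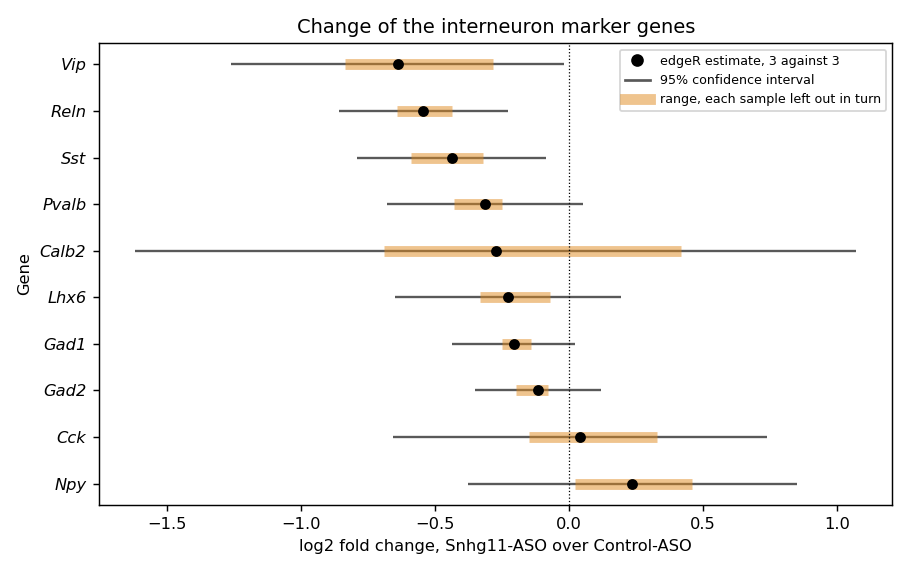
Log2 fold change of Snhg11-ASO over Control-ASO (x axis) for the 10 marker genes, with the edgeR estimate, its 95% confidence interval and, in orange, the range when each sample is left out in turn. The intervals of Vip, Reln and Sst lie below 0, and the orange ranges of Cck and Calb2 cross 0.

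The genes differed in how tightly the samples of a group agreed. The coefficient of variation (CV, the SD as a percent of the mean) of the enzymes was small, 8.65% in Control-ASO and 5.38% in Snhg11-ASO samples for Gad1, and 9.60% and 4.83% for Gad2. Calb2 was the widest at 71.6% and 44.0%. Vip was at 38.8% in Control-ASO and 2.62% in Snhg11-ASO samples, the latter below the 5.01% that counting error alone gives at the lowest knockdown count of 398 read pairs. Cck had the opposite pattern, 14.4% in Control-ASO and 38.5% in Snhg11-ASO samples. Without Control-ASO replicate 3 the CV of Vip in controls was 12.9%, and without Snhg11-ASO replicate 1 that of Cck in the knockdown group was 2.55%.

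Over the 10 genes the median CV was 14.6% in Control-ASO and 11.8% in Snhg11-ASO samples. Over all genes tested the order was the other way, 12.3% and 18.9%, as it was over the 10257 genes at or above the lowest marker's level, 7.68% and 12.8%. Both medians of the markers moved with single samples. The control median was 11.5%, 11.6% and 18.2% without Control-ASO replicate 1, 2 and 3. The knockdown median was 9.30%, 12.8% and 8.97% without Snhg11-ASO replicate 1, 2 and 3. These medians come from 2 samples and are not directly comparable with those over 3. The CV was higher in controls for 6 of the 10 markers and for 6695 of the 19969 genes. These are descriptions over 3 samples a group, and no test of them was made. By sample, Control-ASO replicate 1 was the highest of the 6 for 5 markers and Snhg11-ASO replicate 2 the lowest for 5. The lowest marker count in any sample was 114 read pairs, for Calb2 in Control-ASO replicate 2, where counting error is 9.37%.

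**Figure D3:**
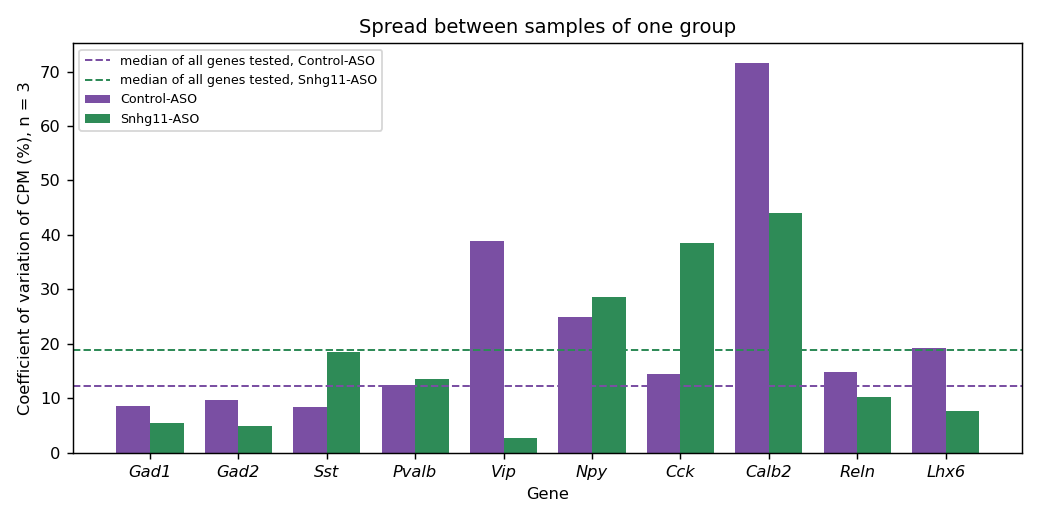
Coefficient of variation of CPM within Control-ASO (purple) and Snhg11-ASO (green), 3 samples each, for every marker gene, with dashed lines at the median of all genes tested in each group (12.3% and 18.9%). Calb2 has the tallest bars, the bar of Vip is taller in the controls and that of Cck in the knockdown group.

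Set against exon length, the order of the markers in Control-ASO samples was Sst (86.5 CPM per kb), Cck (83.3), Npy (36.2), Gad1 (26.1), Gad2 (19.8), Pvalb (18.1), Reln (5.93), Calb2 (5.50), Vip (4.75) and Lhx6 (2.03). Neighbours whose control samples overlapped were Sst with Cck, Gad2 with Pvalb, Reln with Calb2 and Calb2 with Vip. In Snhg11-ASO samples Cck had the highest mean, 85.6 ± 32.9 (SD, n = 3) CPM per kb, and Sst followed at 63.9 ± 11.8 (SD, n = 3).

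To compare the classes with the general GABAergic transcripts of the same library, each marker was divided by the counts of Gad1 and Gad2 together. Reln was at 473, 391 and 471 per 1000 enzyme counts in the controls, and 316, 345 and 372 in the knockdown samples. Its groups did not overlap, which held for 1 of the 8 ratios, a share near the 15.4% of all genes by CPM. The ratio had means of 445 ± 46.9 and 344 ± 27.6 (SD, n = 3 each) and a log2 difference of -0.37 (two-sided exact permutation test, p = 0.1, 0.4 after Benjamini-Hochberg adjustment over the 8 ratios). Sst went from 198 ± 22.1 to 164 ± 23.4 per 1000 (SD, n = 3 each), and Snhg11-ASO replicate 3 at 190 lay within the control range of 177 to 221. The log2 differences of Pvalb (-0.14), Lhx6 (-0.04), Calb2 (0.10) and Cck (0.13) were smaller in size than that of Sst (-0.28), and Vip was at -0.40 and Npy at 0.39 with overlapping groups. Without Control-ASO replicate 3 the difference of Vip was -0.058, and without Control-ASO replicate 1 that of Npy was 0.20. With Slc32a1, the vesicular GABA transporter, as the denominator, 0 of 8 ratios were apart.

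**Figure D4:**
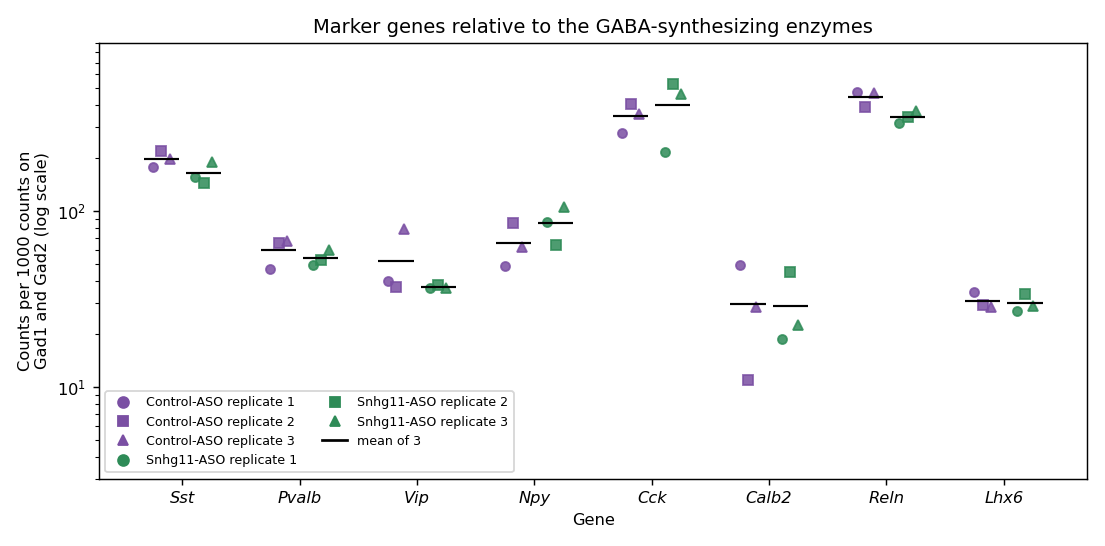
Counts of 8 marker genes per 1000 counts on Gad1 and Gad2 in each sample (log axis), with a bar at each group mean. Reln, from 391 to 473 in the controls and from 316 to 372 in the knockdown samples, is the gene of the 8 whose groups are apart.

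Several peptide genes of interneurons are known targets of CREB, a factor that binds the cAMP response element (CRE), which in Sst was among the first described. The 300-base RefSeq promoters (GRCm38.p6, 250 bases before to 50 after the start) were searched for it on both strands, after the values had been seen. The full palindrome TGACGTCA was in 1.79% of 32851 promoters and the half-site TGACG, or CGTCA on the other strand and contained in the palindrome, in 20.8%. Of the 9 markers with a promoter listed, 4 held a half-site, and Sst the palindrome. These 9 genes had 12 promoters, so the marker counts are of genes while the percentages are of promoters, and the 2 are not directly comparable. The stretches around them are shown 5′ to 3′ with the motif in capitals, as the matches found among the markers:
Sst: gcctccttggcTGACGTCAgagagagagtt
Vip: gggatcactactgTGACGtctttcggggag
Cck: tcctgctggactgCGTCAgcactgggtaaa
Gad2: tccatttcccttcCGTCActctctcatctc

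The Sst stretch is at chr16:23890874-23890903 (minus strand), the Vip stretch at chr10:5639126-5639155 (plus strand), the Cck stretch at chr9:121495725-121495754 (minus strand) and the Gad2 stretch at chr2:22622281-22622310 (plus strand). The motif begins at position -48 from the RefSeq start in Sst, -79 in Vip, -47 in Cck and -33 in Gad2. The GENCODE models of Sst and Gad2 begin further upstream, so that these stretches lie within the annotated bounds of the genes. Of the 4 genes with a motif, Sst, Vip and Gad2 had log2 fold changes below 0, and that of Cck was 0.04 with either sign over the alternatives. Over all 10 markers 8 were below 0, and a link between the motif and the changes was not tested.

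Beyond the 10 markers, other genes of interneurons were read from lists. Over all genes tested, 4.43% were lower at an unadjusted p under 0.05 in edgeR, and 7.7% were lower with groups that did not overlap. Of the 5 genes of GABA transport and breakdown, 5 were lower, with a median log2 fold change of -0.40. Abat, the transaminase that degrades GABA, was at 183, 159 and 162 CPM in Control-ASO and 116, 141 and 134 CPM in Snhg11-ASO samples. The groups of Abat did not overlap, and its log2 fold change was -0.36 (edgeR adjusted p = 0.522, unadjusted p = 0.0121). Of the 5 genes, 2 were at an unadjusted p under 0.05 in edgeR. Without Snhg11-ASO replicate 1, the lowest sample for Abat, 5 genes were still lower and 1 was at an unadjusted p under 0.05, and both numbers were the same without Control-ASO replicate 1. Slc6a11 and Abat are also made by astrocytes, whose 6 marker genes summed to 4364 to 6543 CPM in Control-ASO and 3987 to 6584 CPM in Snhg11-ASO samples.

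Of 13 MGE-type interneuron genes 12 were tested and all 12 had log2 fold changes below 0, with a median of -0.33. Erbb4, the neuregulin receptor enriched in interneurons, was at 140, 110 and 126 CPM in Control-ASO and 60.8, 78.9 and 73.8 CPM in Snhg11-ASO samples. The groups of Erbb4 were far apart, and differed by -0.82 on the log2 scale (standard error 0.13), with an adjusted p of 0.308 in edgeR and 0.000236 in DESeq2. It was the only gene of this list that DESeq2 called. Erbb4 spans 1076 kb, and with the trend with genomic span removed its log2 fold change was -0.42. Tac1, which encodes the precursor of substance P, had a log2 fold change of -1.21 (edgeR adjusted p = 0.574). Cort, a peptide gene related to Sst, was at -0.82 and Nxph1, a neurexin ligand, at -0.36 (edgeR adjusted p of 0.583 and 0.570). Cort was low, at 0.527 to 1.36 CPM and at most 41 read pairs in a sample, and Tac1 had at most 170 read pairs. These 4 genes were at an unadjusted p under 0.05 and their groups did not overlap. Leaving out Snhg11-ASO replicate 1, 6 genes were at that p and 10 lower, and leaving out Control-ASO replicate 1, 2 genes were at that p and 12 lower. With all samples kept and the trend with genomic span removed, 11 genes were lower, 3 of them at that p. Nxph1, which spans 301 kb, was then at -0.19. Pnoc, the gene of prepronociceptin, had the value nearest to 0 in this list, a log2 fold change of -0.01.

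Of 10 CGE-type interneuron genes 8 were lower and 2 higher, the median was -0.11, and none reached an unadjusted p under 0.05 in edgeR. Without Snhg11-ASO replicate 1, 4 of the 10 were lower, and with the trend with genomic span removed 7 were. The most abundant was Cnr1, the cannabinoid receptor of Cck basket cells, with a log2 fold change of -0.14 (edgeR adjusted p = 0.829). The lists of MGE-type and CGE-type genes were not tested against each other.

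Of 12 interneuron transcription factors tested (Nkx2-1 was too low), 9 were lower and 3 higher, with a median of -0.17. Satb1, a chromatin organizer of MGE-derived interneurons that other neurons also make, was at -0.63 (edgeR adjusted p = 0.551) with its highest value in Control-ASO replicate 3. The groups of Satb1 did not overlap, and 1 gene of the list was at an unadjusted p under 0.05 without Control-ASO replicate 1 or replicate 3, against 2 with all samples.

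Receptors for the peptides and for reelin were divided, with 7 of 13 lower and 6 higher and a median log2 fold change of 0.00. Npy2r, a presynaptic receptor for neuropeptide Y, was at 40.4, 39.9 and 27.9 CPM in Control-ASO and 64.9, 59.3 and 60.9 CPM in Snhg11-ASO samples. All knockdown samples were well above all controls, and the log2 fold change was 0.77 (standard error 0.15), with an adjusted p of 0.377 in edgeR and 0.00345 in DESeq2. The somatostatin receptor Sstr3, found on neuronal cilia, was at 0.44 with groups apart (edgeR adjusted p = 0.527). Another somatostatin receptor, Sstr1, was at -0.97 and the cholecystokinin receptor Cckbr at -1.08 (edgeR adjusted p of 0.616 and 0.611), both with overlapping groups and unadjusted p of 0.0499 and 0.0488. The reelin receptors Vldlr and Lrp8 had log2 fold changes of 0.01 and -0.11.

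**Figure D5:**
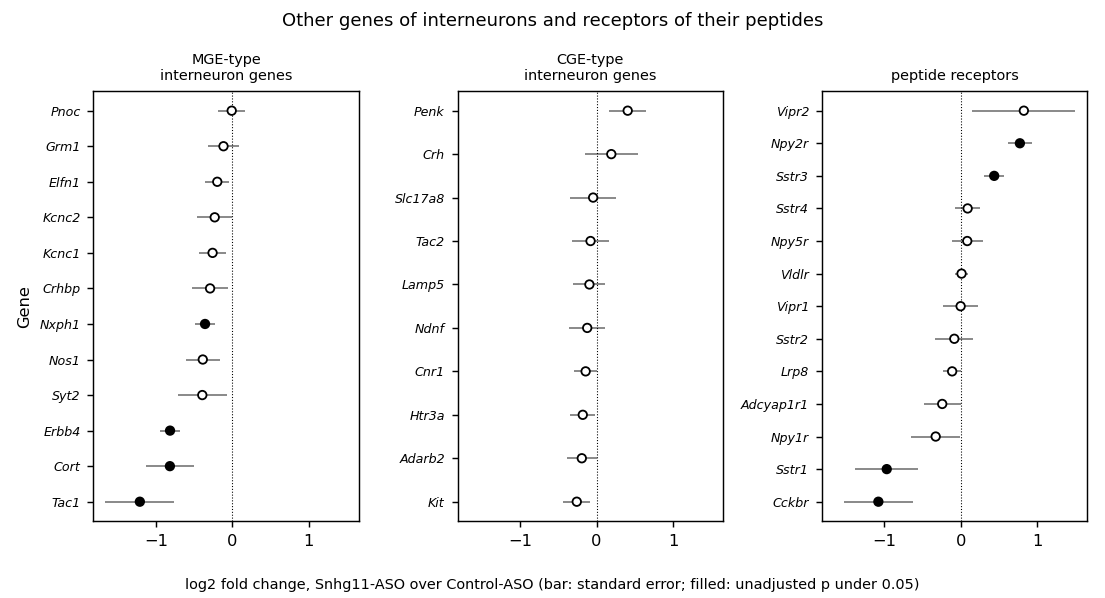
Log2 fold change of Snhg11-ASO over Control-ASO (x axis) with standard errors for the tested genes of 3 lists, with filled points at an unadjusted edgeR p under 0.05. All 12 MGE-type genes and 8 of the 10 CGE-type genes lie below 0, and the peptide receptors lie on both sides.

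Markers of other cells showed what else moved between the samples. Of 8 pan-neuronal genes 8 were lower, 2 of them at an unadjusted p under 0.05 in edgeR (Syt1 at -0.32 and Tubb3 at -0.51, adjusted p of 0.528 and 0.562), and the summed CPM was 4741 to 5108 in Control-ASO and 3993 to 4895 in Snhg11-ASO samples. With the trend with genomic span removed, 7 of the 8 were lower, and Syt1, which spans 513 kb, was at -0.072. Glutamatergic genes were divided, 4 lower and 4 higher, with Tbr1 at -0.62 and Nptx1 at 0.43 (unadjusted edgeR p of 0.0106 and 0.0225, adjusted p of 0.507 and 0.551). Of the mossy cell genes Glipr1 was at 0.85 (unadjusted edgeR p of 0.0280, adjusted p = 0.566). Granule cell, astrocyte, microglial, oligodendrocyte and endothelial genes had 0 genes at an unadjusted p under 0.05. Striatal genes were lower in 6 of 6, summing to 124 to 132 CPM in Control-ASO and 112 to 119 CPM in Snhg11-ASO samples. Pde10a, which spans 461 kb, held most of this sum (81.6 to 95.9 CPM). Its log2 fold change was -0.09, and 0.14 with the trend with genomic span removed. Of the thalamic genes 2 were lower and 4 higher, with summed CPM of 47.1 to 72.1 in the controls and 61.2 to 64.4 in the knockdown samples, and Prkcd was at 0.76 (adjusted p of 0.304 in edgeR and 1.55e-05 in DESeq2). The part of these tissues and cells in the marker values was not tested.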

How the data were processed

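Total RNA depleted of ribosomal RNA was sequenced as paired reads from 3 Control-ASO and 3 Snhg11-ASO samples. The authors aligned reads with STAR 2.5.2a to GRCm38 (mm10) and deposited raw counts of read pairs per gene, without normalization or pooling. The methods name Rsubread for counting, while the files have the layout STAR writes, and the annotation release is not given in the sources used here. STAR leaves out pairs that map to several places or to several genes. The 4 summary lines that name no gene held 43.5% to 51.4% of pairs and were left out.

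Reverse-strand counts were used, as the stranded kit predicts (96.2% to 96.8% of stranded pairs). Names and positions came from GENCODE M21 (55141 of 55401 identifiers matched). After filterByExpr (minimum count 10) and TMM scaling, groups were compared with edgeR 4.0.16 (quasi-likelihood test, Benjamini-Hochberg adjustment at 0.05 over all genes tested, R 4.3.3). Each standard error is the size of the log2 fold change over the root of its F statistic. A prior count of 2 was added for log2 CPM. The fits were tested on simulated data. Permutation tests were exact and two-sided.

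The 10 markers, the gene lists and the alternatives were chosen with earlier results of these data known. Named genes were the 10 markers, Snhg11, list genes at an unadjusted p under 0.05, the most abundant list genes and genes overlapping a marker. Some genes of the lists enter the counts and are not reported here by name. Other genes named with values (Prox1, Slc17a6, Slc6a11, Lrp8, Pnoc, Trp73, Nhlh2) were chosen after their values were seen. The alternatives were DESeq2 1.42.0, edgeR with DESeq2 size factors, no filter, both strands counted together, mitochondrial genes left out, limma-voom 3.58.1 with sample weights, the replicate number as a block, offsets for the loess trend with genomic span (alone and with the block), each sample left out, and Slc32a1 as denominator. List counts without single samples or with span offsets were added after seeing the data. The methods give 3 mice per group, and the sample labels do not tie a sample to a mouse. Same-numbered samples deviated together from their group means (correlations 0.297, 0.179 and 0.103), and differently numbered samples were not correlated for comparison. All 3 correlations were above the level that the plan set for calling the samples paired, replicate 3 narrowly. A pairing by number, taken from these values and not from a stated batch, still entered only as the replicate block among the alternatives. The main fit and the permutation tests compared the groups without pairing. The study left out 1 Snhg11-ASO sample that it does not name, and all 6 samples were kept here. Counting errors cover counting only.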

Additional observations from a re-analysis of the deposited data

How the results depend on the processing

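The counts of genes called depended on the tool. Against 0 in edgeR (1619 at an unadjusted p under 0.05), DESeq2 called 258, limma-voom with sample weights 7, edgeR with 1 sample left out 0 to 2, and DESeq2 with 1 Snhg11-ASO sample left out 347, 275 and 223 (without replicate 1, 2 and 3). Of the 10 markers 0 were called in these fits, except 2 (Sst and Reln) in DESeq2 without Snhg11-ASO replicate 3. The number of markers at an unadjusted p under 0.05, 3 at first, was 1 to 4 in edgeR with a sample left out (1 without Snhg11-ASO replicate 2), 1 to 5 in DESeq2 without a Snhg11-ASO sample, and 5 with the block and span offsets together. The share of all genes at that p was taken in the main edgeR fit only (8.11%). It is not the background of the other fits, so their counts cannot be read against it. The median log2 fold change of the markers was -0.28 to -0.11 with a sample left out. The replicate block alone turned Cck to -0.036 and the block with span offsets to -0.065, and the block changed no other marker's direction or call.

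Calb2 and Cck had no stable direction. Calb2 was at 0.19 in limma-voom, and with a sample left out at -0.69 (without Snhg11-ASO replicate 2) to 0.42 (without Control-ASO replicate 1). Cck was at -0.15 (without Snhg11-ASO replicate 2) to 0.33 (without Snhg11-ASO replicate 1) with a sample left out, and below 0 without Control-ASO replicate 1 and Snhg11-ASO replicate 3 too. The other 8 markers kept their direction over all 18 alternatives, Gad2 between -0.20 (without Control-ASO replicate 3) and -0.080 (without Control-ASO replicate 2). Of the ratios to Gad1 and Gad2, 1 was apart, against 0 per Slc32a1 count and 1 to 3 with a sample left out. With a sample left out, 3 samples are compared with 2, where groups come apart more readily. No share of all genes was taken for that comparison. The log2 difference of the Lhx6 ratio was 0.026 per Slc32a1 count and -0.14 to 0.048 with a sample left out, that of Cck -0.11 to 0.52 and that of Calb2 -0.49 to 0.59, with the lowest and highest values without Snhg11-ASO replicate 2 and Control-ASO replicate 1 for Lhx6, Snhg11-ASO replicates 2 and 1 for Cck, and Control-ASO replicates 2 and 1 for Calb2. The cause of these changes was not tested. Calb2 rested on 114 to 499 read pairs a sample, the fewest at its lowest of the 10 markers.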
